A study of Sus scrofa with 18 samples.

Results

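H3K4me3, the trimethylation of histone H3 that marks active promoters, was compared between the muscle layers of the pig uterus to find regions that carried it in circular muscle of both reproductive states and not in longitudinal muscle. The regions were chosen by the overlap and fold enrichment of H3K4me3 peaks: a region was included when it was an H3K4me3 peak of GD15M_CM on chromosomes 1 to 18 or X with a fold enrichment of at least 4, overlapped a CD15M_CM peak by at least 1 bp and overlapped no GD15M_LM peak. There were 1339 such circular-only regions among the 20385 GD15M_CM peaks that reached this fold enrichment (6.57%), out of 33599 GD15M_CM peaks in all. GD15M_CM was circular muscle and GD15M_LM longitudinal muscle of Yorkshire gilts on day 15 of pregnancy, and CD15M_CM was circular muscle of Yorkshire gilts at estrous cycle day 15. All tissue came from the mesometrial side, from which the endometrium had been cut away with a scalpel before the layers were parted. H3K4me3, H3K27ac and an IgG control were profiled by CUT&Tag, in which a transposase tethered to an antibody cuts and tags the DNA around a histone mark, in 2 gilts of each type. The 2 gilts were pooled before peaks were called, so each mark has 1 list per tissue, no difference between the lists could be set against a spread between gilts, and no test was possible. Fold enrichment is the signal of a peak over background as MACS2 gives it, and whether IgG was the background is not stated in the sources used here. All intervals below are 95% Wilson intervals for shares of peaks and cover counting error only. Longitudinal muscle of cyclic gilts was not analysed here, and the layers were therefore compared within pregnancy only.

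The myometrium consists of an inner circular layer, which borders the endometrium with its glands and luminal epithelium, and an outer longitudinal layer under the serosa. Uterine glands are epithelial tubes, and part of the uterine epithelium is ciliated. Promoters that are used in every cell type carry H3K4me3 in every tissue, whereas promoters of cell-type genes carry it where that cell type is present. H3K27ac marks promoters and also enhancers that are active. In bulk tissue, fewer cells of a type and less of a mark per cell cannot be told apart.

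The myometrium label was checked against smooth muscle contractile genes, of which 23 of 24 had H3K4me3 within 3 kb of either gene end in each of the 3 tissues. Epithelial genes were also marked in all 3: of 37 junction, keratin and adhesion genes, 33 had such a peak in GD15M_CM, 34 in CD15M_CM and 32 in GD15M_LM. Of all 28073 placed genes 16168, 16654 and 16417 had one in the same order, and all 15 housekeeping genes had one in each. These counts do not tell the layers apart. The H3K4me3 lists held 31910 to 36331 peaks and the H3K27ac lists 57010 in GD15M_LM, 79877 in GD15M_CM and 82037 in CD15M_CM. The sequencing depth behind a peak is not given in the lists and was not used.

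Most circular-only regions were weak and short. Their fold enrichment in GD15M_CM ranged from 4.00 to 17.3 with a median of 4.69, and 854 of them lay below 5 while 29 reached 10. Their length ranged from 200 to 4395 bp with a median of 473 bp. The 17436 GD15M_CM peaks found in all 3 tissues had a median fold enrichment of 12.7 and a median length of 2039 bp. The minimum of 4 cut through a continuum: the 3 regions just inside it, at LATS2, ACTL6B and MATR3, each had a fold enrichment of 4.003, and the 3 peaks just outside it, at ST6GALNAC4, LOC106506737 and LOC110256295, had 3.999, 3.997 and 3.995. In all, 2492 peaks met the overlap conditions below the minimum. The rule used these values, so they describe the regions and support nothing else.

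In cyclic circular muscle the same regions overlapped 1350 different peaks, whose highest fold enrichment per region had a median of 4.40 and reached 51.4. Each CD15M_CM value given for a region here and below is that of the strongest whole peak it overlapped by at least 1 bp. That peak may extend beyond the region, and its highest signal may lie outside it. At MATR3, for example, a region of 4.003 in GD15M_CM overlapped a CD15M_CM peak of 34.0. H3K27ac values were taken in the same way. By rank within its own list a region sat at a median percentile of 48.4 in GD15M_CM and 47.0 in CD15M_CM. The rank was higher in GD15M_CM at 771 regions and higher in CD15M_CM at 568, but the rule set a minimum in GD15M_CM and none in CD15M_CM, and the lists differ in length, so this split is partly fixed by the choice of regions. A CD15M_CM peak of fold enrichment of at least 10 overlapped 218 regions, and 148 of these lay under 1 kb from a GD15M_LM peak.

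**Figure D1:**
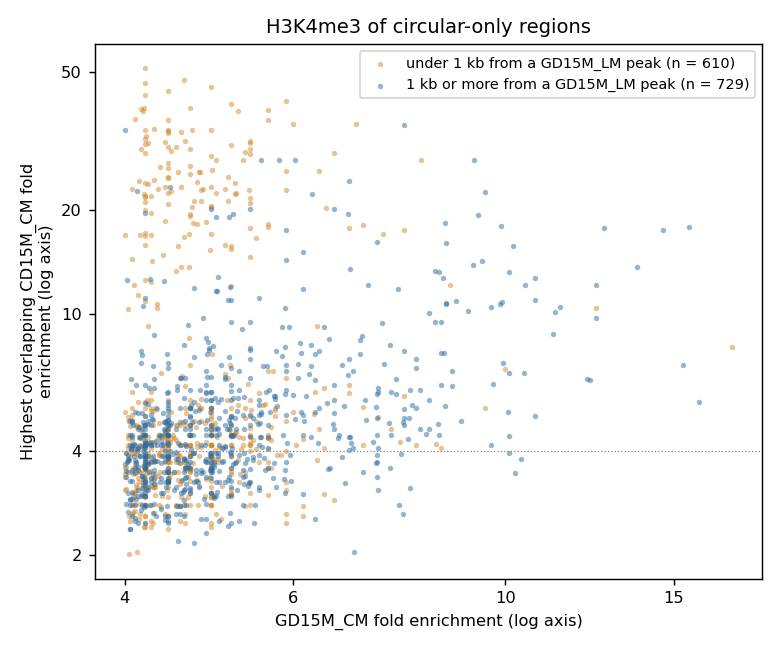
Fold enrichment of each circular-only H3K4me3 region in GD15M_CM (x axis, log scale) and of the strongest CD15M_CM peak it overlapped (y axis, log scale), with 1 point per region. Orange points are the 610 regions under 1 kb from a GD15M_LM peak, blue points the 729 others, and the dotted line is a CD15M_CM fold enrichment of 4. Most points crowd near 4 on both axes, and most points above 10 on the y axis are orange.

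The regions fell into those beside a GD15M_LM H3K4me3 peak and those apart from one. The distance to the nearest GD15M_LM peak had a median of 1163 bp and reached 1591465 bp. At 610 regions (45.6%, 42.9 to 48.2) it was under 1 kb, and 380 of them were closer than 500 bp. The other 729 regions lay 1 kb or more away, 300 of them at least 10000 bp and 125 at least 50000 bp. The results below are given for both.

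Circular-only regions lay near genes but seldom on the gene end itself. RefSeq gene models were used without strand, so the distance is to either end of a gene, not to its transcription start. Within 3 kb of a gene end lay 803 of 1339 regions (60.0%, 57.3 to 62.6), against 77.0% of all GD15M_CM peaks of the same minimum. Another 404 regions (30.2%) lay deeper in a gene body and 132 (9.86%) were outside genes. The median distance was 2300 bp. Only 92 regions (6.87%, 5.64 to 8.35) contained a gene end, as did 60.9% of the peaks found in all 3 tissues. The share was lower still in the other groups of peaks that were not found in all 3 tissues. It was 4.64% in GD15M_CM peaks that overlapped a GD15M_LM but no CD15M_CM peak. In peaks of GD15M_LM alone it was 2.83%, and in peaks of GD15M_CM alone 1.08%.

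Much of the difference from peaks in all 3 tissues went with the strength of the peaks. At a fold enrichment of 4 to 6, 60.9% of circular-only regions (58.0 to 63.7) and 64.5% of peaks in all 3 tissues (63.0 to 66.1) were that close to a gene end, and 5.13% (3.99 to 6.57) against 13.6% (12.5 to 14.8) contained one. These peaks were not matched for length. Of circular-only regions under 500 bp 2.52% contained a gene end, against 23.7% of those of 1000 bp or more. Position also differed between the groups of regions. Of those under 1 kb from a GD15M_LM peak 75.9% (72.4 to 79.1) were within 3 kb of a gene end, against 46.6% (43.0 to 50.3) of those farther away. The reverse class, 1663 GD15M_LM peaks of fold enrichment of at least 4 with no peak in either circular tissue, reached 31.9% (29.7 to 34.1), and the 1114 peaks of GD15M_CM alone reached 49.9% (47.0 to 52.8).

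**Figure D2:**
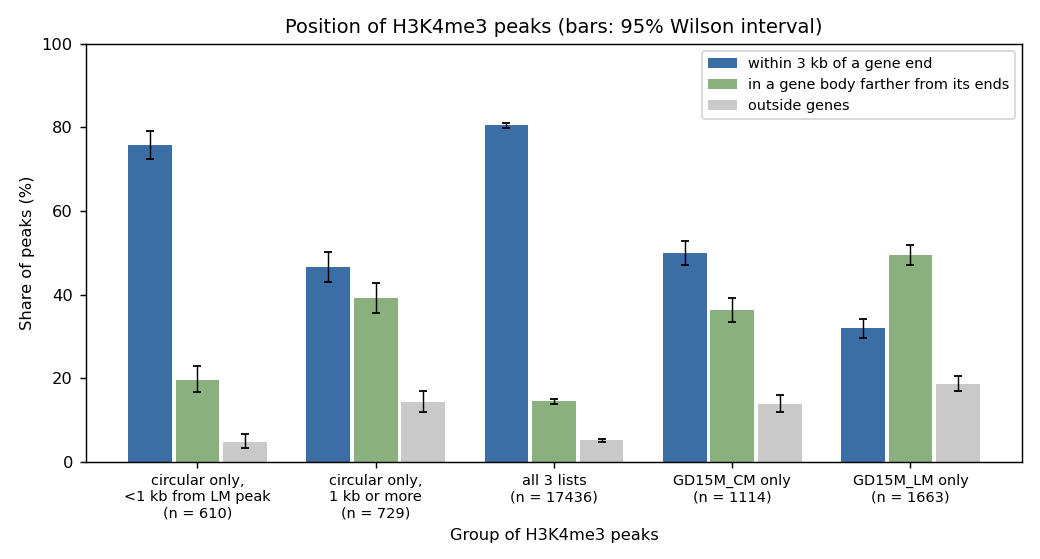
Share of H3K4me3 peaks (y axis, percent) near a gene end (3 kb), deeper in a gene body, or outside genes, for 5 groups of peaks (x axis). Error bars are 95% Wilson intervals and cover counting error only. The bar for gene ends is at 75.9% for circular-only regions beside a GD15M_LM peak and at 46.6% for those 1 kb or more away.

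H3K27ac was not used by the rule, and it differed between the layers at the same regions. An H3K27ac peak overlapped 737 of 1339 regions in GD15M_CM (55.0%, 52.4 to 57.7), 505 in CD15M_CM (37.7%, 35.2 to 40.3) and 169 in GD15M_LM (12.6%, 10.9 to 14.5). Among all GD15M_CM peaks of the same minimum the shares were 82.9%, 80.3% and 74.6%. Circular-only regions thus overlapped H3K27ac less often in every tissue than H3K4me3 peaks in general, and the gap was widest in longitudinal muscle. In the 1114 peaks of GD15M_CM alone the shares were 38.3%, 17.2% and 8.62%. In the 496 GD15M_CM peaks that overlapped a GD15M_LM but no CD15M_CM peak they were 39.7%, 19.6% and 17.9%. A low share in GD15M_LM was thus not particular to circular-only regions. In the reverse class, the 1663 peaks of GD15M_LM alone, the shares were 41.0% in GD15M_CM, 55.2% in CD15M_CM and 54.5% in GD15M_LM. At a fold enrichment of 4 to 6, 12.1% of circular-only regions (10.3 to 14.1) and 54.0% of peaks in all 3 tissues (52.4 to 55.7) overlapped a GD15M_LM H3K27ac peak, whereas for GD15M_CM the shares were 51.5% (48.6 to 54.4) and 64.4% (62.8 to 65.9).

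H3K27ac in both circular tissues and not in GD15M_LM was found at 301 regions (22.5%, 20.3 to 24.8), against 5.42% of all GD15M_CM peaks. The share was 3.94% in peaks found in all 3 tissues, 7.81% in peaks of GD15M_CM alone and 2.16% in peaks of GD15M_LM alone. It was 5.85% (29 of 496) in GD15M_CM peaks that overlapped a GD15M_LM but no CD15M_CM peak. A further 275 regions had H3K27ac in GD15M_CM only, 152 in all 3 tissues, 48 in CD15M_CM only and 4 in GD15M_LM only, and 546 (40.8%) had none. The pattern was found more often among stronger regions: in 21.0% of those at a fold enrichment of 4 to 6, 27.9% at 6 to 10 and 48.3% (14 of 29, 31.4 to 65.6) at 10 or more. Among peaks in all 3 tissues the corresponding shares were 9.56%, 6.67% and 1.22%. In circular-only regions the pattern also rose with length. It was found in 16.4% of those under 500 bp, 27.3% at 500 to 1000 bp and 34.0% at 1000 bp or more. Strength and length were not separated, and peaks compared at the same fold enrichment were not matched for length.

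This count depends on the weak H3K27ac peaks, and GD15M_LM had the fewest. With the same number of top H3K27ac peaks from each tissue, 13.4% of circular-only regions (11.6 to 15.3) and 2.43% of peaks in all 3 tissues kept the pattern. With H3K27ac peaks of fold enrichment of at least 4 only, 7.09% (5.84 to 8.60) and 6.86% (6.49 to 7.24) had it, so the excess was no longer seen. Under that setting 4.70% of circular-only regions and 66.3% of peaks in all 3 tissues still overlapped a GD15M_LM H3K27ac peak, against 25.9% and 63.2% for GD15M_CM.

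H3K27ac was more frequent at regions away from gene ends. It was present in GD15M_CM at 44.5% of regions near a gene end (41.1 to 47.9), 71.3% of those in gene bodies (66.7 to 75.5) and 69.7% of those outside genes (61.4 to 76.9). In GD15M_LM the shares were 7.60%, 20.3% and 19.7%. Regions 1 kb or more from a GD15M_LM H3K4me3 peak had H3K27ac in 66.4% (62.9 to 69.7) of cases in GD15M_CM, 48.8% in CD15M_CM and 16.9% in GD15M_LM. Those under 1 kb had it in 41.5% (37.6 to 45.4), 24.4% and 7.54%. The pattern of both circular tissues without GD15M_LM was found in 29.4% (26.2 to 32.8) and 14.3% (11.7 to 17.3) of them.

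**Figure D3:**
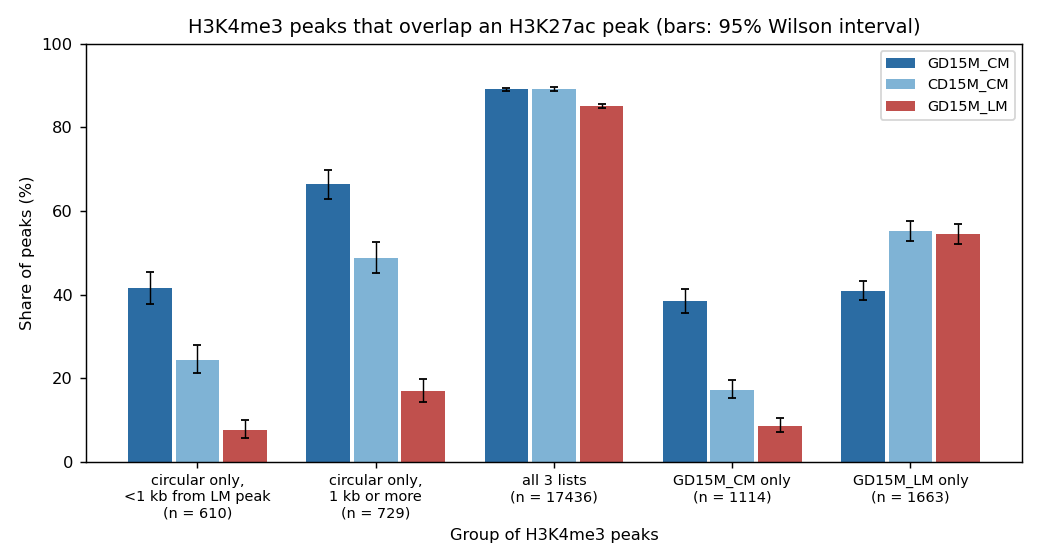
Share of H3K4me3 peaks (y axis, percent) that overlapped an H3K27ac peak of GD15M_CM, CD15M_CM or GD15M_LM, for 5 groups of peaks (x axis), with 95% Wilson intervals for counting error. In both groups of circular-only regions the GD15M_LM bar is the lowest, at 7.54% and 16.9%, while in peaks of all 3 tissues the 3 bars lie between 85.2% and 89.3%. The GD15M_LM bar is also the lowest in peaks of GD15M_CM alone, at 8.62%.

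The strongest regions were mostly away from gene ends and had H3K27ac in circular muscle. Of the 10 with the highest fold enrichment, 8 overlapped an H3K27ac peak in GD15M_CM, 7 in CD15M_CM and 0 in GD15M_LM. The highest, chr5:77637392-77637957 in the gene LOC100626841, had a fold enrichment of 17.3 in GD15M_CM and 8.0 in CD15M_CM, lay 776 bp from a GD15M_LM peak and was the only one of the 10 with no H3K27ac. A region in the body of NHSL1, chr1:25919636-25922340, had 15.6 and 17.8 and lay 23268 bp from a GD15M_LM peak. One in DNM3, a dynamin gene, chr9:114553345-114556045, had 14.6 and 17.5 and was 19487 bp from the microRNA gene MIR199A-1.

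An intergenic region at chr1:31584295-31584987 had an H3K4me3 fold enrichment of 15.3 in GD15M_CM and 7.11 in CD15M_CM. Its nearest gene end, 89411 bp away, belonged to CTGF, which encodes a matricellular growth factor. Its H3K27ac had a fold enrichment of 7.04 in GD15M_CM (percentile 97.4 of that list) and 4.08 in CD15M_CM (percentile 69.1). A region 67 bp from the metallothionein gene MT1A, chr6:18670430-18671949, had an H3K4me3 fold enrichment of 12.4 and 10.4 and an H3K27ac fold enrichment of 5.06 and 2.73 in the same order. Metallothioneins bind zinc and copper. It lay 657 bp from a GD15M_LM H3K4me3 peak.

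Homeobox genes and a secreted Wnt regulator were among the genes at the 5 longest regions. The longest, 4395 bp at chr8:5623863-5628257, ended 124 bp from MSX1, a homeobox transcription factor of the uterine epithelium and stroma at implantation. It had an H3K4me3 fold enrichment of 9.72 in GD15M_CM and 6.27 in CD15M_CM and an H3K27ac fold enrichment of 5.53 and 3.35. MSX1 itself had GD15M_LM H3K4me3 peaks, and its strongest peak ranked at percentile 95.1 in GD15M_CM, 95.8 in CD15M_CM and 67.4 in GD15M_LM. The strongest H3K27ac peak within 3 kb of an end of MSX1 ranked at 95.2, 77.2 and 80.7 in the same order. A region of 3494 bp at NOTUM, chr12:1033776-1037269, which encodes a secreted inhibitor of Wnt ligands, had 8.76 and 12.2 with H3K27ac of 4.09 and 4.22. The other long regions were at PSPH (4140 bp), an enzyme of serine synthesis, HOXB3 (3293 bp) and SLC24A4 (3139 bp), a cation exchanger, and 4 of the 5 longest had H3K27ac in both circular tissues and not in GD15M_LM.

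Some genes held several regions. HOXB3, a homeobox gene of the HOXB cluster, and STX18, a syntaxin of the endoplasmic reticulum, each had 6, JOSD1 had 5, and CDC42SE2, LYRM7, LOC100627466 and the long noncoding RNA LOC110255475 had 4. CDC42SE2 and LYRM7 overlap and share their regions. At HOXB3 the regions had a fold enrichment of 4.72 to 9.28 in GD15M_CM, and 5 of them had the same CD15M_CM value of 28.0. They lay 358 to 3694 bp from a GD15M_LM peak, and 5 of the 6 had H3K27ac in both circular tissues and not in GD15M_LM. Some of them also had identical H3K27ac values. Regions at CDC42SE2 likewise shared a CD15M_CM value of 20.1. Neighbouring regions can overlap the same peak, so regions of a gene are not independent observations. Of all 1350 CD15M_CM peaks overlapped, 25 were overlapped by 2 or more regions. At STX18 the fold enrichment was 4.44 to 6.26, and 3 of 6 had that H3K27ac pattern.

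Regions less than 50 kb apart were also joined, a grouping chosen after the values were seen. There were 22 loci of at least 4 regions, which held 100 of the 1339. A locus of 6 regions over 42810 bp, chr4:76826816-76869625, surrounded SOX17, a transcription factor needed for uterine gland formation, and 4 of the 6 had H3K27ac in both circular tissues and not in GD15M_LM. All 6 lay 1812 bp or more from a GD15M_LM H3K4me3 peak, and their fold enrichment was 5.17 to 10.7 in GD15M_CM. Of these 6, 4 are the regions already counted at LOC100627466, which they overlap. Loci of 4 regions lay at MSX2, at DLX6 and around MT1A. The 4 at DLX6 are those already counted at LOC110255475, which they overlap. At MSX2, a homeobox factor related to MSX1, the 4 regions had 5.27 to 7.72 in GD15M_CM and 4.23 to 11.8 in CD15M_CM, all 4 were 2273 bp or more from a GD15M_LM peak, and all 4 had H3K27ac in GD15M_CM but 1 in CD15M_CM. Longitudinal muscle marked these loci as well, with 4 GD15M_LM H3K4me3 peaks at SOX17, 1 at MSX2, 4 at DLX6 and 6 around MT1A. Other loci lay in gene-dense stretches. The 5 regions near SLC3A2, the 5 near TAF6L and the 5 near LSM2 were interspersed with 7, 35 and 36 GD15M_LM peaks.

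Within 3 kb of an end, 1038 of 28073 placed RefSeq genes (3.70%) had a circular-only region, and 871 of them were protein coding. Most of these genes also carried H3K4me3 in longitudinal muscle: 145 genes (0.517% of placed genes) had a circular-only region and no GD15M_LM H3K4me3 peak at either end or in the body. Of the 145, 100 were protein coding, 36 were long noncoding RNAs, and 95 had a symbol other than a LOC number. For comparison with the 1038 genes, 638 genes (2.27%) had a GD15M_LM-only peak near an end. These were counted whether or not circular muscle had another peak at the gene.

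Genes of gland and epithelial identity were represented by few regions. Of 17 placed transcription factors of uterine glands and epithelium, 3 had a region (ELF3, EHF and SOX17), of 37 junction, keratin and adhesion genes 2 (LLGL2 and RAB25), and of 27 secretory and receptivity genes 1 (MSX1). This makes 6 of 81 genes (7.41%), against 3.70% of all placed genes, and the same lists had 0 genes with a GD15M_LM-only peak. Because the lists were made with earlier results of these data known and no test was possible, this difference of a few genes was not tested. Only a gene with a GD15M_CM H3K4me3 peak near an end can have a region there. Such a peak was at 13 of 17, 33 of 37 and 15 of 27 genes of the lists, and at 16168 of 28073 placed genes. The shares were not adjusted for this. When regions in the gene body were also counted, GRHL2, CLDN4, SPINT2 and TMC4 were among the genes that joined the 6.

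At ELF3, an epithelial transcription factor of the ETS family, the region spanned the end of the gene at chr10:24237533-24239468 and had a fold enrichment of 4.62 in GD15M_CM and 2.90 in CD15M_CM, with the nearest GD15M_LM peak 17699 bp away. Its H3K27ac was weak, with a fold enrichment of 3.05 in GD15M_CM, and GD15M_LM had no H3K27ac peak on it. GD15M_LM did have an H3K27ac peak within 3 kb of an end of ELF3. The strongest such peak ranked at percentile 33.1 in GD15M_CM, 18.5 in CD15M_CM and 32.2 in GD15M_LM. At EHF, a related factor, the region had an H3K4me3 fold enrichment of 5.02 and 4.17. It was 7352 bp from a GD15M_LM peak, which lay inside the gene. SOX17, LLGL2, a cell polarity gene, and RAB25, an epithelial membrane trafficking GTPase, had GD15M_LM H3K4me3 peaks near an end as well. At these genes the circular-only region lay 282 to 1812 bp from a GD15M_LM peak.

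The rank of the mark at these genes was also compared. A gene's rank was taken as the percentile of its strongest H3K4me3 peak within its list, with 0 for no peak. The lists differ in length (32943, 35600 and 31290 H3K4me3 peaks on these chromosomes in GD15M_CM, CD15M_CM and GD15M_LM), so a rank is not a level of the mark. The median of the 37 junction, keratin and adhesion genes was 75.8 in GD15M_CM, 76.9 in CD15M_CM and 58.5 in GD15M_LM, and 29 of 37 (78.4%) were higher in both circular tissues. For the 17 transcription factors the medians were 65.8, 71.9 and 52.6, and 11 (64.7%) were higher in both. For the 27 secretory and receptivity genes they were 16.5, 16.9 and 0, and 7 (25.9%) were higher in both. Among all placed genes the medians were 59.9, 64.5 and 59.1, and 23.8% were higher in both. Of the 15 housekeeping genes 9 (60%) were higher in both, at medians of 94.9, 90.2 and 90.5. A share above that of all placed genes was therefore not particular to epithelial genes. The housekeeping share was below the 78.4% of the junction, keratin and adhesion genes, and the difference was not tested. Few genes of these lists had a peak within 3 kb of an end in both circular tissues and none there in GD15M_LM. They were ELF3 and EHF of the 17 transcription factors and the keratin gene KRT7 of the 37 junction, keratin and adhesion genes. FGF7 and WNT7B were those of the 27 secretory and receptivity genes. GD15M_LM had a peak inside EHF. Of all 28073 placed genes 299 had this pattern. GD15M_LM had a peak near an end at 11 of the 17 and 32 of the 37 genes. The part of epithelial cells in the circular-only regions was not tested.

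Of the 24 smooth muscle contractile genes 0 had a circular-only region, while MYLK, ACTA2, ACTG2 and SYNPO2 had a GD15M_LM-only peak. Such a peak was found at 2.27% of all placed genes and at 3 of the 15 housekeeping genes (TUBA1B, PGK1 and HPRT1), so it was not particular to muscle genes. The median percentile of the smooth muscle genes was 74.7 in GD15M_CM, 85.6 in CD15M_CM and 89.0 in GD15M_LM, and 4 of 24 were higher in both circular tissues. Of 41 factors that pattern the uterine mesenchyme 1 had a circular-only region (MSX2) and 5 a GD15M_LM-only peak (EN1, HOXD9, HOXA13, MEIS1 and PGR, the progesterone receptor). The 35 contractant receptor genes, 20 stromal, 20 endothelial, 22 T and NK cell, 16 myeloid and B cell, and 14 interstitial and neural genes had 0 regions each. Of 26 interferon and antigen presentation genes 1 had a region (STAT2), and of 15 housekeeping genes 2 (YWHAZ and TUBA1B), each beside GD15M_LM peaks. In all, 12 of the 321 genes of these 14 lists (3.74%) had a region, close to the 3.70% of all placed genes.

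Of the 9 placed mesothelium genes, which mark the serosal cover that lies on the longitudinal layer, 2 had a region and no GD15M_LM H3K4me3 peak. LRRN4 had a fold enrichment of 4.68 in GD15M_CM and 5.02 in CD15M_CM at its gene end, and an H3K27ac peak in all 3 tissues, at 2.22, 3.38 and 3.77 in the order GD15M_CM, CD15M_CM and GD15M_LM. The region counted for KLK11, a kallikrein protease, lay within 3 kb of its end but inside the neighbouring gene KLK12, which is not on the list. It had 10.4 and 3.81 with no H3K27ac in any tissue. Median percentiles of the list were 67.3 in GD15M_CM, 59.9 in CD15M_CM and 56.1 in GD15M_LM.

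**Figure D4:**
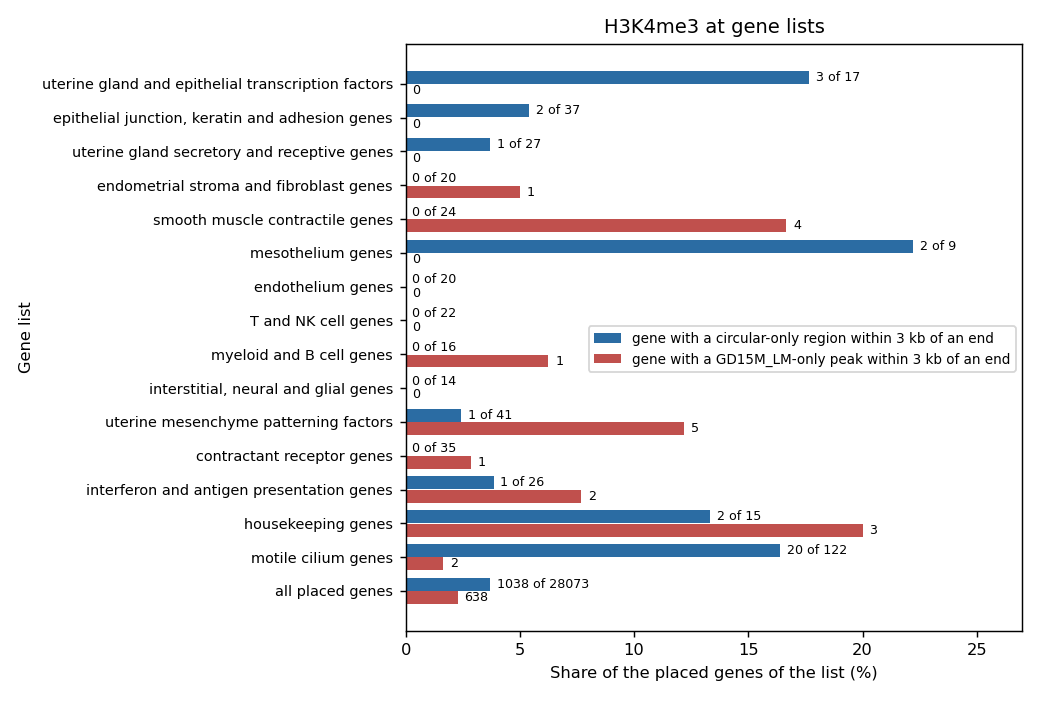
Share of the placed genes of each list (x axis, percent) that had a circular-only region (blue) or a GD15M_LM-only H3K4me3 peak (red) within 3 kb of a gene end, with the number of genes beside each bar. Smooth muscle genes have red bars only (4 of 24), the gland and epithelial lists blue bars only, and motile cilium genes, a list written after the values were seen, have 20 of 122 in blue and 2 in red.

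Genes of the motile cilium recurred among the regions, and a list of 127 such genes was written after this had been seen, so its count describes these data and was given no test. Of the 122 placed, 20 (16.4%) had a circular-only region near an end, against 3.70% of all placed genes, and 2 had a GD15M_LM-only peak. A GD15M_CM H3K4me3 peak, without which no region is possible, was near an end at 106 of the 122. It was there at 16168 of 28073 placed genes, and the shares were not adjusted for this. At 11 of the 20 there was no GD15M_LM H3K4me3 peak at either end or in the body: SPAG6, EFHB, NME9, MORN3, CFAP73, CFAP65, LRGUK, RIBC2, TTLL10, CCDC153 and CFAP47. The median percentile of the list was 65.9 in GD15M_CM, 69.5 in CD15M_CM and 59.1 in GD15M_LM, and 69 of 122 (56.6%) were higher in both circular tissues. GD15M_LM had a peak at 93 of the 122, so most cilium genes were marked in longitudinal muscle too.

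Among the cilium genes with no GD15M_LM peak, SPAG6, a protein of the central pair of the axoneme, had a fold enrichment of 8.45 in GD15M_CM and 9.49 in CD15M_CM at chr10:52570953-52572080, and no H3K27ac in any tissue. RIBC2, an axonemal microtubule protein, had 8.07 and 6.95 at chr5:3974882-3976147, over its boundary with the meiotic cohesin gene SMC1B. That region had H3K27ac of 3.01 in GD15M_CM only. Within 3 kb of an end of RIBC2 all 3 tissues had H3K27ac. Its strongest peak ranked at percentile 32.4 in GD15M_CM, 51.0 in CD15M_CM and 21.5 in GD15M_LM. CFAP65 had an H3K4me3 fold enrichment of 4.40 and 12.4. These regions lay 3532, 46310 and 62013 bp from a GD15M_LM peak. The further cilium genes, CFAP47 and LRGUK, had 4.10 and 5.90 in GD15M_CM and were 1210321 and 189400 bp from one.

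Of the genes that had a GD15M_LM peak as well, GMNC, which encodes a coiled-coil protein that starts the multiciliated cell program, had a region of 6.14 in GD15M_CM and 15.1 in CD15M_CM, and its strongest peak ranked at percentile 61.8, 74.2 and 2.07 in the order GD15M_CM, CD15M_CM and GD15M_LM. The radial spoke gene RSPH9 ranked at 56.0, 54.7 and 6.43. A region in the body of SPEF2, a sperm flagellum and cilium gene, was among the 10 strongest, with 12.5 in GD15M_CM and 9.71 in CD15M_CM, 121199 bp from a GD15M_LM peak. Over the regions of the 20 cilium genes, taking 1 region per gene, H3K27ac was found at 9 in GD15M_CM, 6 in CD15M_CM and 2 in GD15M_LM, and at 10 in none.

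The genes with no GD15M_LM H3K4me3 peak that ranked highest by region were of mixed function. The highest was a region at chr8:54949635-54950670, over an end of PDCL2, a phosducin-like gene, and within 3 kb of NMU, which encodes the neuropeptide neuromedin U. It had a fold enrichment of 12.4 in GD15M_CM and 12.1 in CD15M_CM, H3K27ac of 5.21 in CD15M_CM only, and was 38235 bp from a GD15M_LM peak. ANKS4B, a protein of epithelial microvilli, had 10.7 and 5.04, and ATP2C2, a calcium pump of the secretory pathway, had 10.2 and 15.7. DMRT3, a DM domain transcription factor, had 9.92 and 10.9, and GRIK1, a glutamate receptor subunit, had 9.26 and 13.9 at 634696 bp from a GD15M_LM peak.

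Further down the order, DRAXIN, an axon guidance protein, had 8.60 and 12.7, GDA, a guanine deaminase, 9.15 and 10.2, ACPP, an acid phosphatase, 8.32 and 10.1, and MISP, an actin-bundling protein, 7.96 and 6.02. FAM167A, DPY19L2, C6H1orf141, C7H6orf52 and the meiotic cohesin gene RAD21L1 completed the 20, with 7.94 to 10.2 in GD15M_CM and 3.45 to 13.2 in CD15M_CM. Because some genes shared a region, the 20 genes stood for 17 regions. H3K27ac overlapped 10 of the 17 in GD15M_CM, 6 in CD15M_CM and 1, at MISP, in GD15M_LM, and 5 had none.

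**Figure D5:**
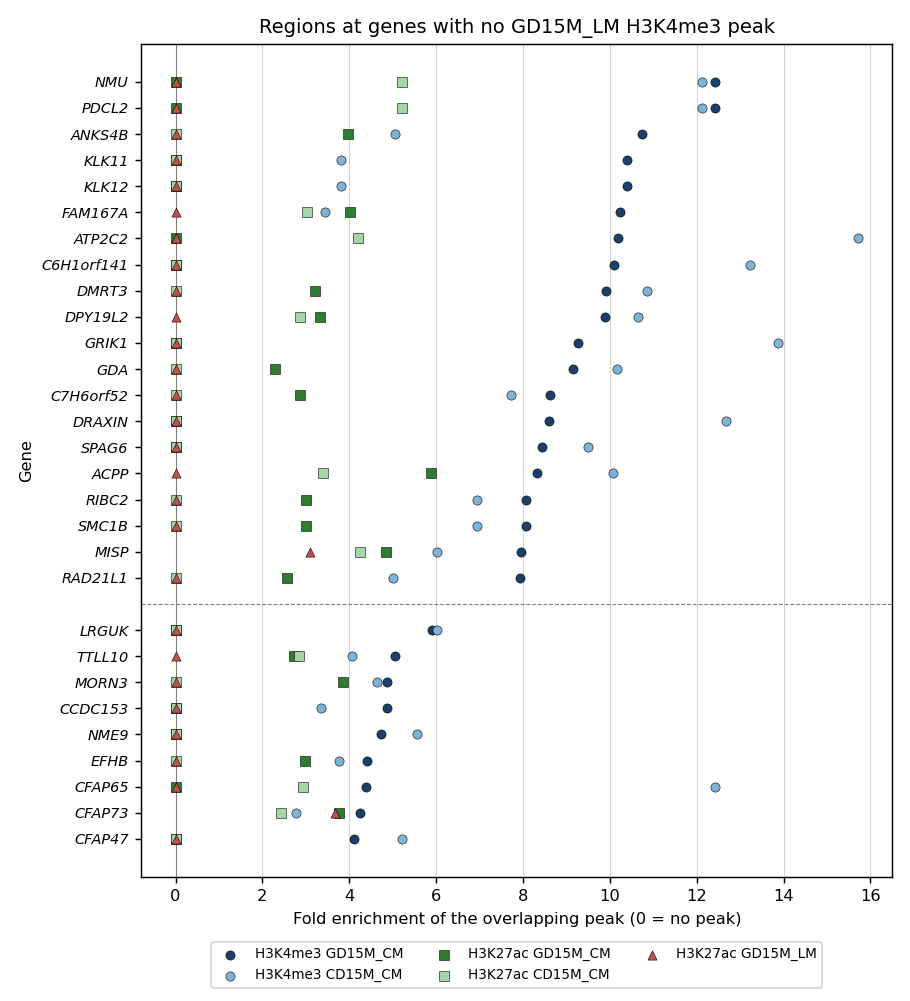
Fold enrichment (x axis, 0 for no peak) of the H3K4me3 region in GD15M_CM and CD15M_CM (circles) and of the overlapping H3K27ac peaks (squares and triangles) at genes with no GD15M_LM H3K4me3 peak (y axis). Above the dashed line are the 20 genes of highest GD15M_CM fold enrichment, and below it the other cilium genes. GD15M_LM H3K27ac, the red triangles, is at 0 except at MISP (3.09) and CFAP73 (3.68).

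Across the 95 named genes with no GD15M_LM H3K4me3 peak, which stood for 86 regions, H3K27ac was found at 46 in GD15M_CM, 36 in CD15M_CM and 13 in GD15M_LM, and 16 had it in both circular tissues and not in GD15M_LM. The regions were spread over all chromosomes examined, from 2.83% of the GD15M_CM peaks of chromosome X (18 of 635, 1.80 to 4.44) to 9.80% of those of chromosome 11 (40 of 408, 7.28 to 13.1).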

How the data were processed

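CUT&Tag libraries of H3K4me3, H3K27ac and IgG (18 in all) were grouped by title, with 2 gilts per tissue. For mapping, the authors used BWA (v0.7.17-r1188) and the 11.1 assembly of Sus scrofa. Duplicates and poorly mapped reads were filtered out by them in Picard (v2.8.3) and SAMtools (v1.9), and the replicates of a tissue were pooled for peak calling in MACS2 (v2.2.6). Whether IgG was its control is not given in the sources used here. The 6 deposited lists give each peak's fold enrichment over background, a ratio, and −log10 p. The headers of the −log10 columns were unreadable in the lists, and the −log10 p values were used only in alternatives. Depth could not be read from the lists.

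Overlaps, distances and shares were computed in Python 3.11.15 (SciPy 1.17.1, NumPy 2.4.6, pandas 2.3.3) and drawn with Matplotlib 3.10.9, and the overlap code was checked on simulated data. Percentiles rank fold enrichment within a list. The 28073 RefSeq genes of Sscrofa 11.1 on chromosomes 1 to 18 and X carried no strand. The regions, gene lists and alternatives were chosen with earlier results of these data known, and the cilium list was written after the values were seen. Named genes were list genes with a region, the 20 of highest fold enrichment among named genes with no GD15M_LM peak, the 10 strongest and 5 longest regions, genes with at least 4 regions, and the 3 regions on either side of the minimum. Loci named beyond these were chosen after their values were seen. A genome sequence was not used here.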

Additional observations from a re-analysis of the deposited data

How the results depend on the processing

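Each list pools both gilts, so leaving out a replicate could not be done. No paired analysis was possible because the lists hold no value per gilt. Of 71 alternative values 27 stayed within the interval or 1.5 times of the reported one and 44 moved.

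The number of regions was 2990 with a minimum of 3, 485 with 5, 3831 with none, 808 with CD15M_CM peaks of at least 4, 729 and 384 with no GD15M_LM peak within 1 or 5 kb, 2126 if only GD15M_LM peaks of at least 4 excluded a region, 645 with peaks under 1 kb apart joined, and 468 at −log10 p of at least 10.

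The share within 3 kb of a gene end was 56.5% with a minimum of 5, 46.6% with no GD15M_LM peak within 1 kb, 56.2% at −log10 p of at least 10, 56.3% from the peak centre, 53.8% for protein-coding genes only, and 21.6% and 82.7% for windows of 1 and 10 kb.

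H3K27ac in GD15M_CM was found at 50.5% with a minimum of 3, 64.7% with 5, 66.4% with no GD15M_LM peak within 1 kb, 72.6% at −log10 p of at least 10, 25.9% for H3K27ac peaks of at least 4, 45.9% when 50% of the region had to be covered, and 45.3% with the same number of top H3K27ac peaks. In CD15M_CM it was found at 43.3% with a minimum of 5, 48.8% with no GD15M_LM peak within 1 kb, 50.4% at −log10 p of at least 10, and 14.0%, 26.6% and 27.4% under the last 3 settings. In GD15M_LM it was found at 15.8% with a minimum of 3, 16.9% with no GD15M_LM peak within 1 kb, 18.2% at −log10 p of at least 10, 4.70% for H3K27ac peaks of at least 4 and 7.99% when 50% had to be covered. GD15M_LM was the lowest of the 3 tissues under each setting run.

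H3K27ac in both circular tissues and not in GD15M_LM was found at 19.0% with a minimum of 3, 27.8% with 5, 29.4% with no GD15M_LM peak within 1 kb, 31.2% at −log10 p of at least 10, 7.09% for H3K27ac peaks of at least 4, 16.2% when 50% had to be covered, and 13.4% with the same number of top H3K27ac peaks. Among peaks in all 3 tissues 12.6% had this pattern when 50% had to be covered. Of the marker genes, 23 had a region with a minimum of 3, 7 with CD15M_CM peaks of at least 4, and 19 when the gene body was counted. The cause of these shifts was not tested.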
